A study of Mus musculus with 2 samples.

Results

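Neutrophils made up 152 of the 17705 liver cells that passed the filters on cells. They were selected on measured values: a barcode was a member when it held at least 20 UMIs of S100a8 and S100a9 together, at least 1 UMI of Csf3r, Retnlg and Cxcr2 together, and under 5 UMIs of C1qa, C1qb and C1qc together. A UMI is a unique molecular identifier, a tag that marks 1 cDNA molecule, so PCR copies are counted once. Cells entered with 500 UMIs or more, 200 genes or more, and no more than 25% mitochondrial UMIs. Of the members, 110 came from the 11617 cells of the library whose barcodes end in suffix 1, and 42 from the 6088 cells of the library with suffix 2.

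The study ran droplet single-cell RNA sequencing (10x Genomics 3′ v3.1) on cells dissociated from mouse liver and purified by Percoll centrifugation. Per the labels, 1 sample was Cebp_KO and 1 was Cebp_WT, and both came from mice fed HFCFD, a diet high in fat, cholesterol and fructose, at 40% for 2 weeks. Per the study's methods, the knockout joins floxed Cebpa with Albumin-cre on a C57BL/6N background, so that Cre is driven by a promoter of hepatocytes and not of neutrophils, and the study's controls are Cebpa fl/fl mice. The sources used here state neither the age of the mice nor how many went into a sample. Both libraries lie in 1 joined matrix and no label ties a suffix to a genotype, so the libraries are called by their suffix, no genotype is compared, and with 1 library each no test was possible.

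Neutrophils are short-lived granulocytes that mature in the bone marrow and enter the liver from the blood. During maturation they fill their granules in a fixed order, first primary granules (myeloperoxidase, elastase), then secondary granules (lactoferrin, cathelicidin) and last tertiary granules (gelatinase), and the transcripts of early granule proteins are switched off before the cells leave the marrow. C/EBP transcription factors, the family of the gene deleted in this study, drive much of this programme.

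Members held a median of 2596.5 UMIs (range 1479 to 41666) with suffix 1 and 2308.5 UMIs (range 1497 to 11513) with suffix 2. The median member had 1239 and 1104 detected genes, and 1.24% and 3.63% of its UMIs were mitochondrial. Over all cells past the filters the medians were 1424 and 2309.5 UMIs, in B cells 3787 and 3339.5 UMIs and in C1q macrophages 10488.5 and 7951.5 UMIs. Levels below are summed UMIs of all members of a library per 1000000 UMIs (CPM), with exact Poisson 95% intervals in parentheses, and shares have exact (Clopper-Pearson) 95% intervals. Both intervals cover counting error only, and cells of a library are not replicates of a condition. A count of 0 UMIs over all members allows up to 7.89 CPM with suffix 1 and 24.6 CPM with suffix 2, taking 3 counts as the limit. The exact interval for 0 UMIs reaches 9.70 and 30.3 CPM.

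The genes of the rule are given as a description, since they chose the members. The sum of S100a8 and S100a9 had a median of 106 UMIs (range 21 to 1240) per member with suffix 1 and of 71 UMIs (range 21 to 2423) with suffix 2. Just inside the limit, 10 and 3 members held 20 to 29 UMIs, and just outside it 13 and 5 cells held 10 to 19 UMIs. Among cells past the filters, none that reached the S100 limit lacked the receptor UMI or held 5 or more C1q UMIs, so the S100 limit alone fixed the membership. S100a8 (chr3:90668978-90670035) and S100a9 (chr3:90692632-90695721), which form the calcium-binding complex calprotectin, had levels of 22043 and 20608 CPM and of 28127 and 29857 CPM (suffix 1, then suffix 2, as in all pairs below). These coordinates are from GENCODE vM21 on GRCm38, and both genes are protein-coding. Csf3r, the receptor for G-CSF, had 2298 (2148 to 2455) and 2232 CPM (1975 to 2514). Cxcr2, the receptor for the chemokines that draw neutrophils into tissue, had 868 (776 to 966) and 894 CPM (734 to 1079). In B cells, Csf3r reached only 1.82 and 1.05 CPM, and S100a8 had 4 UMIs in each library. The B cell rule itself required under 20 UMIs of S100a8 and S100a9 per cell.

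**Figure D1:**
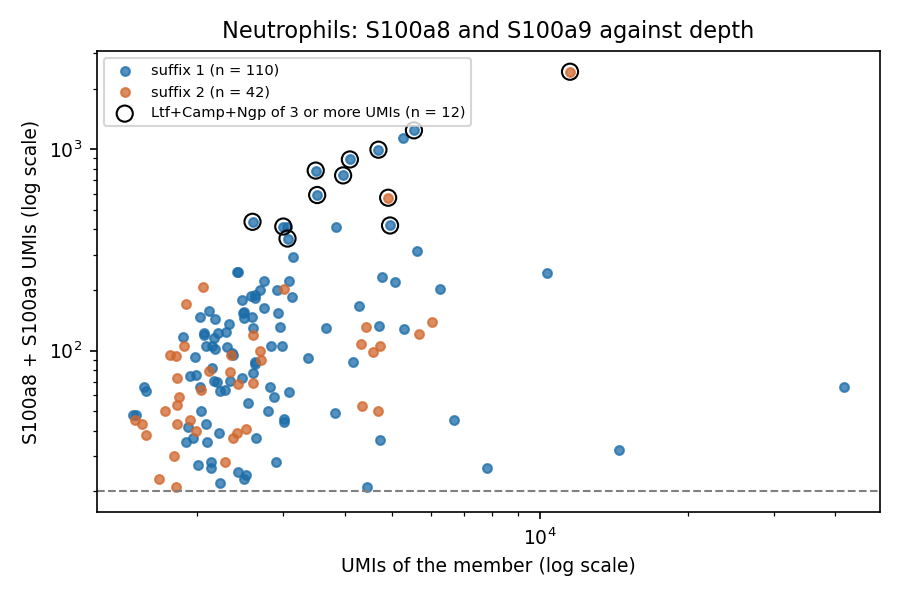
S100a8 plus S100a9 UMIs (y, log scale) against all UMIs (x, log scale) of each neutrophil, in the library with suffix 1 (blue, n = 110) or suffix 2 (orange, n = 42). Circles mark the 12 members with 3 or more UMIs of Ltf, Camp and Ngp, which hold 360 or more S100 UMIs, and the dashed line is the limit of 20 UMIs.

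The label was checked against markers of other cells. Markers of basophils or mast cells were at 0 UMIs in all members, and eosinophil markers did not exceed 2 UMIs in any member. T cell markers (5 genes) reached 10 UMIs in 1 member of each library, with 18 and 20 UMIs. B cell markers reached 27 UMIs in 1 member with suffix 1, and plasmacytoid dendritic cell markers 40 UMIs in another. Monocyte markers (6 genes) reached 2 UMIs in 31 and 11 members and 10 UMIs in 2 and 0. Dendritic cell markers reached 10 UMIs in 2 members with suffix 1, with up to 34 UMIs, and cholangiocyte markers 17 UMIs in 1. Hemoglobin and other erythroid markers lay mostly in 1 member with suffix 1, which held 2035 of the 3060 erythroid UMIs of that library. The deepest member with suffix 1 had 41666 UMIs and 4117 UMIs of 8 hepatocyte markers. No doublet caller was used, and all of these cells were kept; leaving out the members with 10 or more UMIs of such a list, hepatocyte markers aside, left 104 and 41. Of the barcode sequences, 81 occurred in both libraries, and 0 of them belonged to a member.

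Hepatocyte RNA was found in every member. The 8 hepatocyte markers, among them Alb (albumin), had a median of 121 and 115 UMIs per neutrophil, and of 136 and 128.5 UMIs per B cell. Neutrophils and B cells thus carried like amounts per barcode, while the summed level was 51807 and 51022 CPM in neutrophils and 29070.5 and 39059.6 CPM in B cells. For this reason each gene below is set beside its level in B cells where it matters.

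Granule genes differed widely between members. Genes of primary granules were at or near 0: Mpo (myeloperoxidase), Elane (neutrophil elastase), Ctsg and Ms4a3 had 0 UMIs in all 152 members, and Prtn3 had 1 UMI in each library. Genes of secondary granules were present, but in few cells. Ngp (neutrophilic granule protein) was found in 12 of 110 and 2 of 42 members, Camp (cathelicidin) in 11 of 110 and 2 of 42 members, and Ltf (lactoferrin) in 6 of 110 and 2 of 42 members. Lcn2 (lipocalin 2, which binds iron-carrying siderophores) was more widespread, in 47 of 110 and 18 of 42 members.

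Promoters of secondary granule genes were searched because these genes were found together in the same members and because C/EBP factors are the subject of the study. RefSeq sequences from 250 bases before to 50 bases after the gene start (GRCm38.p6) were found for 7 of the 8 genes of the list. The letters TTGCNNAA, a C/EBP-like motif, were searched on both strands; they were in 3 of these 7 promoters and in 10.8% of 32851 promoters of the same length. The match marks letters only, not binding. The promoters of Ngp (chr9:110419558-110419857, plus strand), Ltf (chr9:111019042-111019341, plus strand), Lcn2 (chr2:32387690-32387989, minus strand) and Camp (chr9:109849407-109849706, minus strand) are shown 5′ to 3′ on the gene's strand, with matches in capitals. Ngp held 2 matches that did not overlap, Ltf and Lcn2 1 each, and Camp held none in this window.
Ngp: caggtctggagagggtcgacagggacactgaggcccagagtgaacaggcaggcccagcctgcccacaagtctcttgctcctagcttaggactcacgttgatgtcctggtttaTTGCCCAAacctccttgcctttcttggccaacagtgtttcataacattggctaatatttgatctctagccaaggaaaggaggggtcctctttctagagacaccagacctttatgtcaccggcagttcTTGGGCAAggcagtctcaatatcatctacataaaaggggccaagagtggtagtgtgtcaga
Ltf: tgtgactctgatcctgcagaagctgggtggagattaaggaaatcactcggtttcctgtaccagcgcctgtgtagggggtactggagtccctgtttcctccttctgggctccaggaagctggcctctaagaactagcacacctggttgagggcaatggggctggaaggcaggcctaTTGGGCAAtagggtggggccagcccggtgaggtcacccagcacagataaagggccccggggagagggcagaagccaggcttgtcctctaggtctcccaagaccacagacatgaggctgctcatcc
Lcn2: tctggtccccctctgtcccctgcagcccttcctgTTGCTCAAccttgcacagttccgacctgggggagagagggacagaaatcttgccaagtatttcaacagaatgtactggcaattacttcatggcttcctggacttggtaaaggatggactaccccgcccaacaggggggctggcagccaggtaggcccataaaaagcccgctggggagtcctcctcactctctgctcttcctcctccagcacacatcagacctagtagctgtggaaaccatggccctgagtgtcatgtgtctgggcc
Camp: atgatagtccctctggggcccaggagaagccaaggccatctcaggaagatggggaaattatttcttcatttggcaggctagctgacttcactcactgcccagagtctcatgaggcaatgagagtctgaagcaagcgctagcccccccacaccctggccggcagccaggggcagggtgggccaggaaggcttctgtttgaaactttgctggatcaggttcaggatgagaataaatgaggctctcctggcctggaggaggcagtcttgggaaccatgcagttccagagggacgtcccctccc

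Members with 3 or more UMIs of Ltf, Camp and Ngp are called granule-rich here; this is a range cut from 3 genes, not a cell type. They were 10 of 110 members with suffix 1 (9.09%, 4.45 to 16.1) and 2 of 42 with suffix 2 (4.76%, 0.582 to 16.2), and the intervals overlap. After thinning each member to 500 UMIs the shares were 6.36% (2.60 to 12.7) and 4.76% (0.582 to 16.2). Between the granule-rich and the other members there were few intermediate cells, since 3 members held 1 or 2 UMIs of the 3 genes. Ly6c2, which was on the list of monocyte markers, had 37 UMIs spread over all 12 granule-rich members and 36 UMIs in 9 of the others. Without members that held 2 or more UMIs of T, NK, B, monocyte or endothelial markers, the shares were 1.49% and 0%, and at C1q 0 UMIs the suffix 2 share was 0%. In B cells, 0 of 202 and 0 of 182 cells reached 3 UMIs, which allows shares of up to 1.49% and 1.65% by 3 counts of the total and 1.81% and 2.01% by the exact interval.

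**Figure D2:**
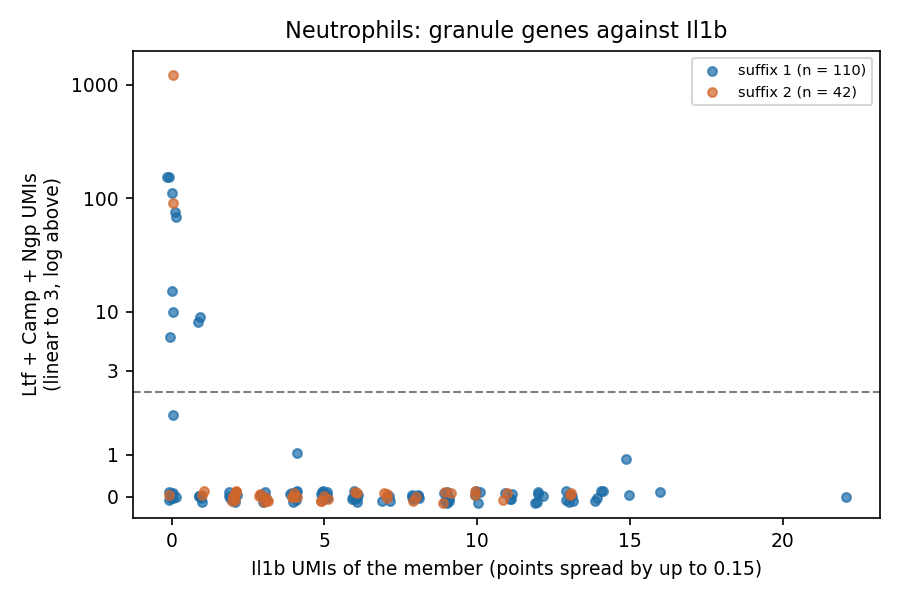
UMIs of Ltf, Camp and Ngp together (y, linear to 3 and log above) against Il1b UMIs (x) in each of 152 neutrophils (blue suffix 1, orange suffix 2; points spread slightly to show overlap). The dashed line marks the limit between granule-rich members and the others. All 12 members above the line hold 0 or 1 Il1b UMI.

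The 12 granule-rich members and the other 140 were compared in genes that had not been used to separate them. Each value below is the level over the pool of both libraries, first in granule-rich members and then in the others, given as a description with no test. Mmp8 (neutrophil collagenase) was 5007 CPM (4435 to 5633) against 217 CPM (176 to 265), Lcn2 6579.7 CPM (5921 to 7292) against 298 CPM (249 to 353), and Wfdc21 3615 CPM (3132 to 4152) against 342 CPM (290.3 to 401). Cd177, a surface protein of neutrophils, was 669 CPM (471 to 922) against 8.95 CPM (2.44 to 22.9). S100a8 was 78793 CPM (76471 to 81168) against 14626 CPM (14273 to 14985). S100a8 was part of the membership rule. Cd177 and, below, Chil3, Ifitm6, Itgb2l and Erg were named for their large ratios in this same comparison, so their differences follow from that choice. Chil3, the chitinase-like protein Ym1, was 2675 CPM (2262 to 3143) against 2.24 CPM (0.0566 to 12.5), but 122 of its 148 UMIs came from 1 member. Without that member it was 594 CPM (388 to 869.6) in the other 11. Ifitm6, an interferon-induced transmembrane protein, was 1699 CPM (1373 to 2079) against 35.8 CPM (20.5 to 58.1), with UMIs in all 12 granule-rich members and in 15 of the others. Mmp9, the gelatinase of tertiary granules, was 1591 CPM (1276 to 1959.8) against 501 CPM (438 to 571). Itgb2l (an integrin beta subunit) and Erg (an ETS transcription factor) each had 12 UMIs in granule-rich members and 0 in the others. Cebpe, the C/EBP factor of secondary granule genes, was 307 CPM (179 to 492) against 22.4 CPM (10.7 to 41.1), and 10 of its 17 UMIs in granule-rich members came from the same 1 member.

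Other genes were lower in granule-rich members. Of these, Il1b, Srgn, Fgl2 and Pla2g7 were named for their small ratios in the same comparison. Il1b, the cytokine interleukin-1 beta, was 36.1 CPM (4.38 to 131) against 1998 CPM (1869 to 2134). It had 0 UMIs in 10 of 12 granule-rich members and in 9 of the other 140. Srgn (serglycin, a granule proteoglycan) was 163 CPM (74.4 to 309) against 2475 CPM (2331 to 2625), and Csf3r was 669 CPM (471 to 922) against 2482 CPM (2338 to 2632). Fgl2 (a fibrinogen-like protein with procoagulant activity) and Pla2g7 (the enzyme that breaks down platelet-activating factor) had 0 UMIs in granule-rich members. That allows up to 54.2 CPM by 3 counts and 66.7 CPM by the exact interval. In the others they were at 629 CPM (557 to 707) and 613 CPM (543 to 690.2). The genes of the rule did not share 1 direction here. Retnlg, a resistin-like secreted protein, was 8405 CPM (7659 to 9205) against 2202 CPM (2066 to 2344), but its direction differed between the libraries, at 11156 against 2094 CPM with suffix 1 and 1888 against 2551 CPM with suffix 2. Cxcr2 was 578 CPM (396 to 817) against 911 CPM (824 to 1004), with intervals that do not overlap in the pool but do without the member with most granule UMIs, where it was 685 CPM (462 to 978). Slfn4, an interferon-induced gene of myeloid cells, was 542 CPM (366 to 774) against 452 CPM, a level inside that interval. Slfn4 turned too, at 745 against 509.6 CPM with suffix 1 and 60.9 against 266 CPM with suffix 2. The other genes of both paragraphs kept their direction within each library, where the granule-rich members with suffix 2 were only 2.

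One granule-rich member carried most of these transcripts in the suffix 2 library. It had 11513 UMIs, 1041 UMIs of S100a8 and 1382 of S100a9, and 1225 of the 1315 Ltf, Camp and Ngp UMIs of its library. The same member held 58 of the 59 UMIs of 9 cell cycle genes in its library, among them all 12 UMIs of Mki67, and all 31 UMIs of the histone gene Hist1h1b. It had 0 UMIs of Mmp8, Mmp9, Csf3r, Retnlg and Il1b. In the suffix 1 library no member held over 3 cell cycle UMIs. Removing this member from the pool left Mmp8 at 6323 CPM (5600.1 to 7113) in the other 11 granule-rich members, Lcn2 at 4246 CPM (3657 to 4902) and Il1b at 45.6 CPM (5.53 to 165), so that the differences above kept their direction for these genes.

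Tertiary granule genes were more widespread than secondary ones in part. Mmp9 was found in 82 of 110 and 31 of 42 members, at 599 (524 to 682) and 689 CPM (549.9 to 854), and was at 0 UMIs in monocytes and in B cells of both libraries. Slpi, an inhibitor of elastase, was at 933 and 1206 CPM in neutrophils and at 169.5 and 308 CPM in B cells. Mmp8 was at 918 (824 to 1019) and 205 CPM (133 to 303) and was in 43 of 110 and 11 of 42 members. It was put on the tertiary list here, but it was distributed like the secondary granule genes. Granule-rich members held 277 of its UMIs and the others 97, whereas for Mmp9 these were 88 and 224. Of the 6 tested genes of the list, Mmp8 was the only 1 that differed by 2-fold or more between libraries, where 2.89% of 3491 tested genes were higher with suffix 1 and 9.02% with suffix 2. Of 7 tested secondary granule genes, 5 were higher with suffix 2 and 0 with suffix 1, and the log2 ratio of Camp, Chil3, Ngp, Ltf and Lcn2 turned without the member that held most. Without granule-rich members, Mmp8 was at 249 CPM (199 to 308) against 114 CPM (58.8 to 199), a difference whose intervals meet at 199 CPM. With members of at least 10000 UMIs left out too, Mmp8 was at 280 CPM (221 to 350) against 114 CPM (58.8 to 199), with intervals apart.

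Among chemoattractant receptors, Cxcr2 was part of the rule and is left out here. Of 7 other tested genes of the list, 4 were at least 4-fold above monocytes in both libraries and 0 were below by the same fold, where 3.83% of 4048 tested genes were above and 2.5% below. Ccr1, a receptor for CC chemokines, was at 358 and 271 CPM in neutrophils and at 36.3 and 25.3 CPM in monocytes. C5ar1, the receptor for complement C5a, was at 318 and 254 CPM against 22.7 and 25.3 CPM. Fpr1, a receptor for formylated bacterial peptides, was at 132 and 107 CPM in neutrophils and at 106 and 99.0 CPM in macrophages. Cxcr4, which retains neutrophils in the marrow, was found in 40 of 110 and 17 of 42 members, at 137 and 156 CPM, against 36.5 and 37.8 CPM in B cells. Cxcr1 and C3ar1 had 0 UMIs. In the leukotriene pathway, Alox5 (5-lipoxygenase) was at 147 and 131 CPM and Alox5ap, its activating protein, at 662 and 574 CPM, against 4.54 and 3.61 CPM and 549.5 and 393 CPM in monocytes.

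Among cytokines, Il1b was the most abundant transcript. It was at 1790.4 (1658 to 1930.1) and 1756 CPM (1529 to 2008), in 94 of 110 and 39 of 42 members. Monocytes had 27.2 and 75.8 CPM, macrophages 71.9 and 67.9 CPM and B cells 1.82 and 2.10 CPM, so neutrophils of both libraries lay far above the other classes and near each other. Il1r2, the decoy receptor for interleukin-1, was at 336 (281 to 400.1) and 172 CPM (107 to 263), and Il1rn, the receptor antagonist, at 118 and 90.3 CPM. Ccl6, a CC chemokine of myeloid cells, was at 889 and 1059 CPM, against 309 and 393 CPM in monocytes. Tnf had 9 and 1 UMIs, and Il6, Il10 and Il1a had 0. Of 11 cytokine receptor genes tested against monocytes, without Csf3r of the rule, 1 was above (Il1r2) and 0 below, against 3.83% and 2.5% of all tested genes.

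Chemokines of activated neutrophils were found in the suffix 1 library, in few cells. Ccl3, Ccl4 and Cxcl2 had 40, 54 and 54 UMIs with suffix 1 and 0 UMIs with suffix 2. With suffix 1, 6 members held 3 or more UMIs of the 3 genes, and all 6 also held Acod1, the enzyme that makes itaconate. Of these 6, 4 held only 1 or 2 UMIs of Csf3r, Retnlg and Cxcr2, and they were the only 4 members with suffix 1 under 3, so most of them lay at the edge of the rule. Acod1 was found in 19 of 110 and 2 of 42 members. At least 1 UMI of the 3 chemokines was found in 16 of 110 members with suffix 1 (14.5%, 8.55 to 22.5) and in 0 of 42 with suffix 2, which allows a share of members with a UMI of up to 7.14% by 3 counts of the total and 8.41% by the exact interval. Of the 40 Ccl3 UMIs, 25 were in 1 member, as were 31 of the 54 Cxcl2 UMIs.

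Among adhesion genes, Cd44, the hyaluronan receptor that also binds osteopontin, was at 1162 (1056 to 1276) and 1379 CPM (1178 to 1604), against 386 and 433 CPM in monocytes. Itgam and Selplg, the integrin alpha M chain and the selectin ligand PSGL-1, were at 381 and 435 CPM and 413 and 419 CPM. Of 9 tested adhesion genes, 0 were 4-fold above or below monocytes in both libraries, against 3.83% and 2.5% of all tested genes. Clec4d, a C-type lectin receptor, was at 513 and 336 CPM against 36.3 and 46.9 CPM, and Trem1, an amplifier of inflammatory signals, at 94.7 and 82.1 CPM against 0 and 10.8 CPM. Of 6 NADPH oxidase genes, 0 were 4-fold above or below monocytes in both libraries. Cybb, its catalytic membrane subunit, was found in only 17 and 5 members, at 197 (155 to 247) and 353 CPM (255 to 475) in neutrophils and at 1167 and 1169 CPM in monocytes. Cyba, the partner of Cybb, was at 489 (421 to 565) and 755 CPM (609 to 926). Both had intervals apart, but 30 of the 43 Cybb UMIs with suffix 2 were in 1 member. Without the member with most in each library, Cybb was at 157 and 118 CPM, so its direction turned, and Cyba was at 474 and 616 CPM. Padi4, the enzyme that citrullinates histones when extracellular traps form, was at 147 and 98.5 CPM, against 4.54 and 0 CPM in monocytes.

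Spp1, which encodes osteopontin and is a gene the study follows in hepatocytes, had 399 UMIs in neutrophils with suffix 1 and 2 UMIs with suffix 2. Of the 399 UMIs, 203 were in 1 member and 146 in another, both with over 10000 UMIs in all, and 38 were spread over the members outside the 3 with most. Without members of at least 10000 UMIs its level was 156 CPM (116 to 206) against 18.1 CPM (2.19 to 65.5). B cells had 94.8 and 17.9 CPM, so that Spp1 was also higher with suffix 1 in a cell type that should lack it. Cholangiocyte markers (4 genes) summed to 73.6 and 8.21 CPM in neutrophils, and the deepest member, which held 146 Spp1 UMIs, held 17 of their UMIs; their part in the Spp1 level was not tested. Whether the remaining Spp1 UMIs were made by neutrophils was not tested.

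Transcription factors of the C/EBP family differed in level. Cebpb and Cebpd were at 276 and 320.1 CPM and 279 and 361 CPM, Cebpe at 36.8 and 107 CPM, and Cebpa at 7.89 and 65.7 CPM with 3 and 8 UMIs. Of the 13 Cebpe UMIs with suffix 2, 10 were in 1 member, and without the member with most in each library Cebpe was at 29.3 and 27.2 CPM. Cebpa in B cells was at 5.47 and 28.4 CPM, so it differed between libraries in that class too. Spi1, which encodes PU.1, was at 623 (546 to 708) and 788 CPM (638 to 962), and Gfi1 had 0 UMIs. Junb was at 486 and 410.3 CPM against 49.2 and 31.5 CPM in B cells, and the survival gene Mcl1 at 878 and 854 CPM. Of 15 tested transcription factors, 1 was 2-fold higher with suffix 1 and 2 with suffix 2, against 2.89% and 9.02% of all tested genes. The 1 was Irf8, with 23 of its 24 UMIs in 1 member, and the 2 were Cebpa and Cebpe. Of 14 tested glycolysis genes and 4 tested survival genes, 0 differed by 2-fold between libraries, against 2.89% and 9.02% of all tested genes. Slc2a3, a glucose transporter, was at 202 and 197 CPM against 0 and 3.61 CPM in monocytes. Among lipid genes, Plin2, which coats lipid droplets, was at 152 and 345 CPM against 86.6 and 159.8 CPM in B cells, and Trem2 and Gpnmb, markers of lipid-associated macrophages, had 0 UMIs.

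Interferon-stimulated genes were abundant in neutrophils. The 17 genes of the list summed to 5348 (5118 to 5585) and 3759 CPM (3422 to 4119). The median member held 15 and 9 UMIs of the list. Slfn4 was at 534 (463 to 612) and 238 CPM (159 to 342), Oasl2 at 447 (382 to 519) and 213 CPM (139 to 313), and Ifitm3 at 1296 (1184 to 1416) and 689 CPM (549.9 to 854), of which 81 UMIs came from 1 member with suffix 1. Ifitm1 was at 497 and 648 CPM, higher with suffix 2 and with overlapping intervals. Of the 17 genes, 14 had the higher level with suffix 1 and 3 with suffix 2, and 4 had intervals that do not overlap. Of the 13 that reached 50 CPM, 11 were higher with suffix 1, against 52.5% of the 3491 tested genes, and 4 with intervals apart, against 3.84%. At the limit of 2-fold, 1 of 13 tested genes of the list (Slfn4) was higher with suffix 1 and 0 with suffix 2, against 2.89% and 9.02% of all tested genes. Ifitm6, the fourth gene with intervals apart, had 94 of its UMIs in granule-rich members, and in the others it was at 35.1 and 37.9 CPM, so that its difference was not seen there.

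**Figure D3:**
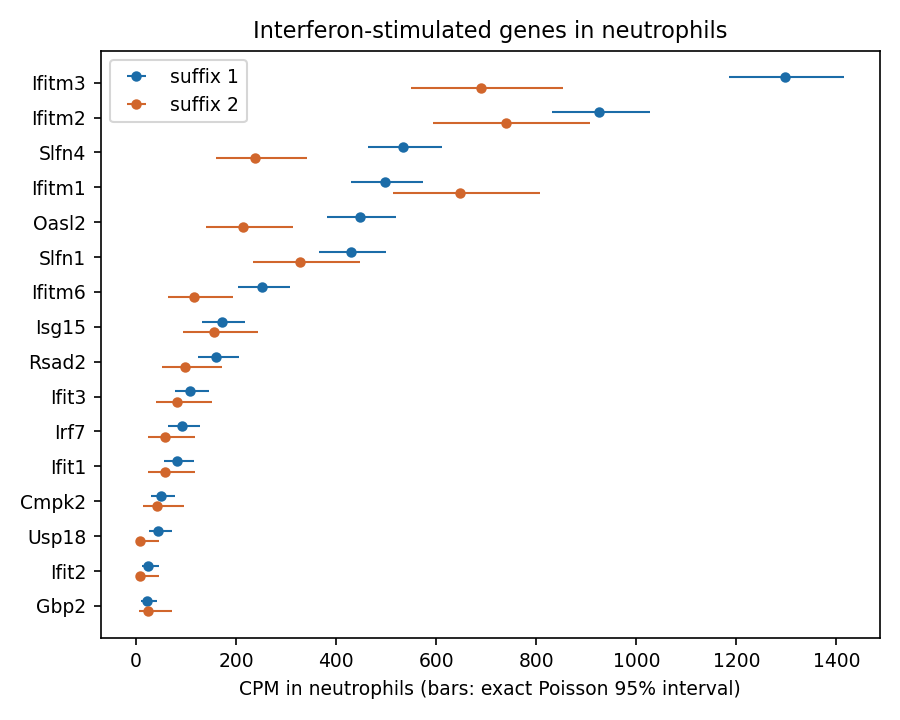
Level (CPM, x) of 16 of the 17 interferon-stimulated genes in neutrophils of the library with suffix 1 (blue) and suffix 2 (orange); bars are exact Poisson 95% intervals and cover counting error only. Ifitm3, Slfn4, Oasl2 and Ifitm6 are the 4 genes whose intervals do not overlap, all higher with suffix 1; outside granule-rich members Ifitm6 was at 35.1 and 37.9 CPM.

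The same direction was seen in the other classes of the same libraries. The list summed to 5968 and 4566 CPM in monocytes, to 3150 and 2802 CPM in C1q macrophages and to 943 and 632 CPM in B cells. Neutrophils without granule-rich members and without those of at least 10000 UMIs had 5921 CPM (5637 to 6216) against 4098 CPM (3720.1 to 4503). The difference is between 2 libraries, and library and liver cannot be told apart.

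Monocytes (28 and 39 cells) and C1q macrophages (286 and 436 cells) were chosen by markers and served for comparison; both were limited to under 20 UMIs of S100a8 and S100a9, and the genes used in the rules were left out of these counts. A gene was counted when the ratio of CPM, with 3 UMIs added to both sums, was at least 4 in both libraries. Against monocytes, 155 of 4048 tested genes (3.83%) were above and 101 (2.5%) below. Against C1q macrophages, 303 of 4447 (6.81%) were above and 239 (5.37%) below. Both counts are a description of cells that were chosen on their expression.

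The genes with the largest ratios to monocytes included granule genes and enzymes. Hdc, the enzyme that makes histamine, was at 854 and 616 CPM and at 0 UMIs in monocytes. Pip5k1b, a phosphoinositide kinase, was at 557 and 492 CPM against 4.54 and 3.61 CPM, and Ifitm1 at 497 and 648 CPM against 0 and 10.8 CPM. Mxd1, a repressor of MYC targets, was at 828 and 821 CPM against 9.08 and 7.22 CPM. Pglyrp1, a peptidoglycan-binding granule protein, was at 463 and 763 CPM against 4.54 and 21.7 CPM, and Stfa2l1, a stefin, at 258 and 222 CPM against 0 UMIs. Secondary granule genes were above monocytes in 5 of 7 tested genes, and interferon-stimulated genes in 2 of 14, against 3.83% of all tested genes.

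Among the genes furthest below monocytes, H2-Ab1, an MHC class II chain, was at 31.6 and 16.4 CPM in neutrophils and 695 and 1162 CPM in monocytes. Ctss, the protease that processes the class II chaperone, was at 65.7 and 16.4 CPM against 1267 and 1285 CPM. Ms4a6c and Ly86, both of the monocyte and macrophage lineage, were at 2.63 and 0 CPM and 10.5 and 0 CPM, against 1139.9 and 827 CPM and 495 and 469 CPM. S100a4, of the same family as S100a8, had 1 and 0 UMIs against 1726 and 1639 CPM. Plac8 and Crip1, both highly expressed in monocytes, were at 92.0 and 41.0 CPM and 18.4 and 41.0 CPM, against 2898 and 2465 CPM and 1976 and 1220 CPM. Cxcl10, an interferon-induced chemokine, was at 13.2 and 0 CPM against 531 and 592 CPM. Of the fixed dendritic cell markers, which include MHC class II genes, 3 of 4 tested were below monocytes, and of 4 tested monocyte markers that were not used in the rules, 2 were, against 2.5% of all tested genes.

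**Figure D4:**
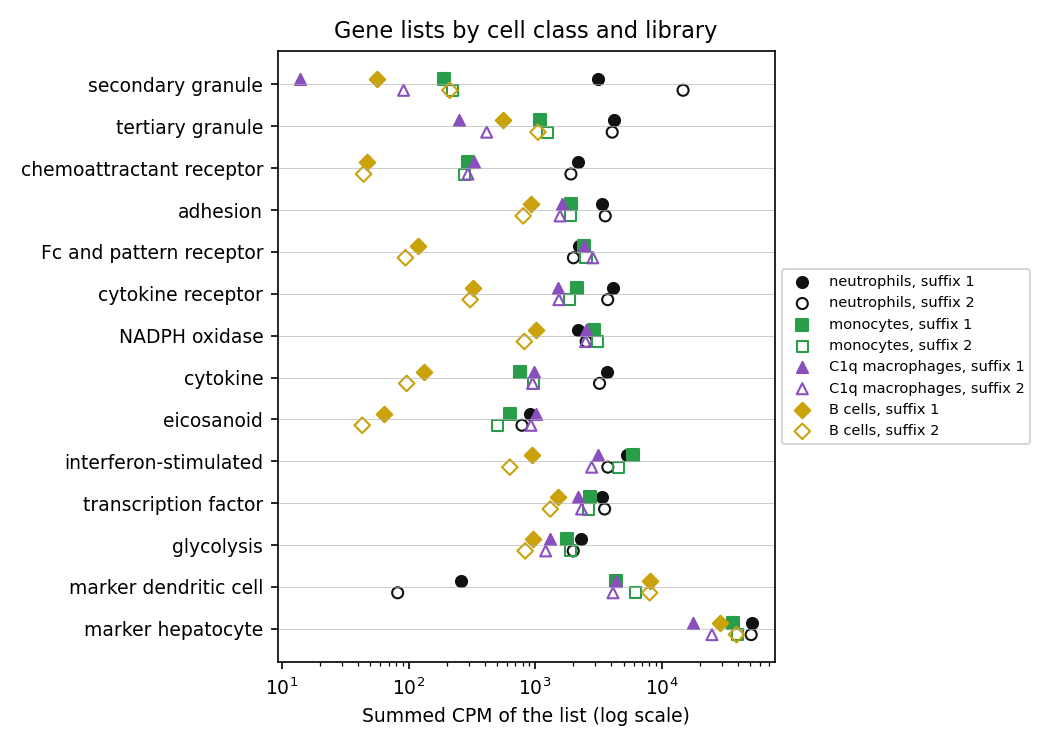
Summed CPM (x, log scale) of 12 functional lists, of dendritic cell markers and of hepatocyte markers in neutrophils (black circles), monocytes (green squares), C1q macrophages (purple triangles) and B cells (yellow diamonds), filled for suffix 1 and open for suffix 2. Secondary granule genes lie highest in neutrophils, and dendritic cell markers, which include MHC class II genes, lowest in neutrophils.

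Between the libraries, 101 of 3491 tested genes (2.89%) were at least 2-fold higher with suffix 1 and 315 (9.02%) with suffix 2. The minimum of 50 CPM in either library equals 6.09 UMIs with suffix 2 and about 3 times as many with suffix 1, where neutrophils held 380352 UMIs against 121849. Of the 315 genes, 58 had intervals that do not overlap, against 79 of the 101. Genes that neutrophils held at 4-fold or more above B cells in either library, a limit chosen after the data were seen, numbered 729. Of these, 29 were higher with suffix 1 (26 with intervals apart) and 84 with suffix 2 (17 with intervals apart). A gene could pass through the library where it was high, so the filter favours such genes and these counts support no difference. Spp1 passed at 1049 CPM against 94.8 CPM in B cells with suffix 1, but was at 16.4 against 17.9 CPM with suffix 2.

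Several of the genes that led this comparison are known as hepatocyte products or were held by single members. Mup3, a major urinary protein of hepatocytes, was at 1328 and 7444 CPM in neutrophils and at 882 and 4757 CPM in B cells. Orm1, an acute-phase protein of the liver, was at 10.5 and 435 CPM against 6.38 and 258 CPM. In the other direction Selenbp2, a selenium-binding protein of liver, was at 431 and 41.0 CPM against 358 and 53.6 CPM, and the trefoil peptide Tff3 at 263 and 0 CPM against 137 and 11.6 CPM. These genes moved the same way in B cells of the same libraries. Camp differed by a log2 ratio of -3.90 (suffix 1 over suffix 2), and by 0.43 without the member with most Camp UMIs in each library. Chil3 went from -3.70 to 1.18, and Ngp from -1.69 to 0.44. These granule genes were therefore higher with suffix 2 through 1 member, and changed direction without it.

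**Figure D5:**
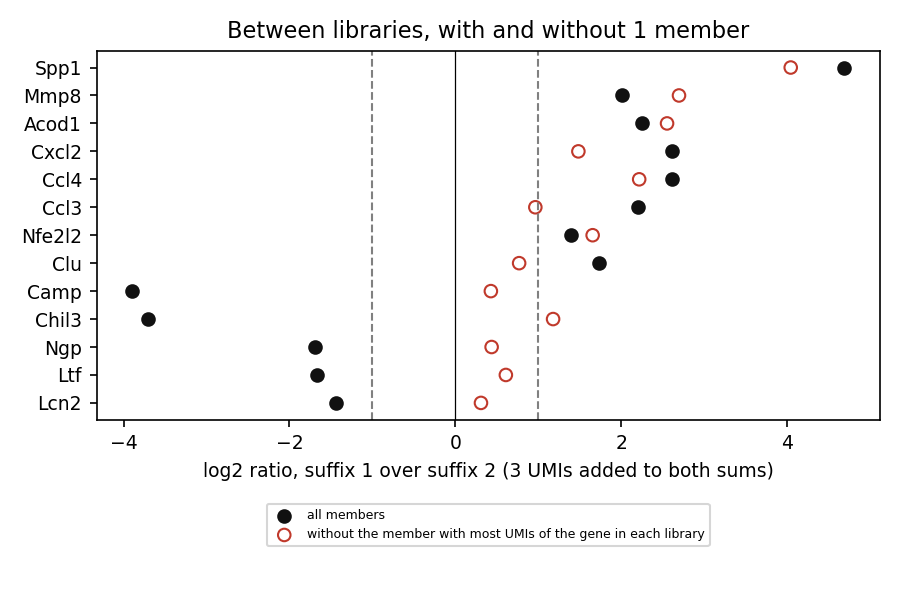
log2 ratio of CPM between the libraries (suffix 1 over suffix 2, 3 UMIs added) of 13 genes in all neutrophils (black) and without the member that holds most UMIs of that gene in each library (open red). Dashed lines mark 2-fold. Camp, Chil3, Ngp, Ltf and Lcn2 pass from the left of 0 to its right.

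Among genes higher with suffix 1, some rested on many members and some on few. Nfe2l2, which encodes the oxidative stress factor NRF2, was at 294 (242 to 354) and 90.3 CPM (45.1 to 162), in 54 of 110 and 8 of 42 members, and at 53.8 and 39.9 CPM in B cells. After thinning to 1000 UMIs, 26.4% (18.4 to 35.6) and 9.52% (2.66 to 22.6) of members held it, and these intervals overlap, as did those after thinning to 500 UMIs. Clu, which encodes clusterin, was at 1269.9 and 361 CPM, but 274 of its 483 UMIs were in 1 member, and without members of at least 10000 UMIs it was 357 CPM (294 to 429) against 389.7 CPM (282 to 525). Nfe2l2 was thus spread over many members, while most Clu UMIs lay in 1.

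The share of neutrophils among cells past the filters was 0.947% (0.779 to 1.14) with suffix 1 and 0.690% (0.498 to 0.931) with suffix 2, with intervals that overlap. That overlap depended on the filter: among all barcodes the shares were 0.676% (0.559 to 0.809) and 0.313% (0.230 to 0.416), and at a mitochondrial limit of 50% they were 0.790% (0.654 to 0.947) and 0.461% (0.338 to 0.615), with intervals apart in both cases. The libraries differed in their other cells: among neutrophils, monocytes, C1q macrophages and B cells together, neutrophils were 17.6% (14.7 to 20.8) of 626 cells and 6.01% (4.36 to 8.04) of 699 cells, with intervals apart. Of neutrophils and C1q macrophages alone, neutrophils were 27.8% (23.4 to 32.5) and 8.79% (6.41 to 11.7). Tissue digestion and the Percoll step can set which cells are recovered. The suffix 2 library held more barcodes over the mitochondrial limit, with a median of 41.3% mitochondrial UMIs over all its barcodes against 4.07% with suffix 1.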

How the data were processed

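Droplet single-cell RNA sequencing counts of 2 liver samples were analysed from 1 joined matrix of UMI counts per gene and barcode. The authors made these counts before they deposited them; the submitters' processing notes name Cell Ranger 7.1.0, STAR 2.7.2a, bcl2fastq 2.20.0 and mm10. How barcodes were called as cells, whether intronic reads were counted and whether depth was equalised are not stated in the sources used here. Raw counts of 32316 barcodes (17313 with suffix 1, 15003 with suffix 2) were used, with no value columns left out.

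For each class and library, UMIs were summed and divided by the total (CPM), with Python 3.11.15, numpy 2.4.6, scipy 1.17.1, pandas 2.3.3 and matplotlib 3.10.9. Ratios had 3 UMIs added to both sums. Genes needed 50 CPM in either library or class. Functions were tested on simulated counts. Neutrophil sums held 380352 and 121849 UMIs, so levels with suffix 2 are the less precise.

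Monocytes had 5 or more Lyz2 UMIs, 2 or more of Ccr2 and Ly6c2, under 5 C1q UMIs and none of Siglech, Flt3, Cd3d, Cd3e and Cd79a. C1q macrophages had 20 or more C1q UMIs. B cells had 3 or more of Cd79a, Cd79b and Ms4a1, under 5 C1q UMIs and none of Cd3d, Cd3e, Cd3g and Siglech. All 3 classes were limited to under 20 UMIs of S100a8 and S100a9. Named genes were 2 to 4 per functional list and any with intervals apart, and from the largest ratios at 100 CPM or more: 10 per direction between libraries, 15 above and 10 below monocytes, and 10 per direction in granule-rich members. Some genes that the rule names are not reported here. Other genes named (Nfe2l2, Clu, Acod1) were chosen after their values were seen. The members and lists were chosen with earlier results of these data known. The B cell rule, the limit of 4 times the B cell level and the leave-outs of deep members and of members with 10 or more UMIs of other markers were set after seeing the data. Alternatives varied the rule's limits, the filters, the CPM minimum and the members kept.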

Additional observations from a re-analysis of the deposited data

Results flagged for a closer look

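Barcodes outside the filters on cells also met the marker part of the neutrophil rule, and they enter no comparison above. There were 7 with suffix 1 and 5 with suffix 2, all over the mitochondrial limit, where a level above what 0 barcodes would allow drew attention to them. Their mitochondrial share was 26.7% to 49.3% in the first library, and in the second it was 27.2% to 61.8%. They held a median of 61 and 77 UMIs of S100a8 and S100a9, against 106 and 71 in members. There was 1 library per suffix, so no group was large enough for a search for outlying samples.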

How the results depend on the processing

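With 1 library per suffix, depth and single members limit these results. The neutrophil share moved from 0.947% with suffix 1 to 0.749% (C1q at 0 UMIs), 0.732% (S100 limit of 50), 1.32% (1000 UMIs or more), 0.676% (no filter) and 0.577% (members with 2 or more UMIs of T, NK, B, monocyte or endothelial markers left out), and from 0.690% with suffix 2 to 0.476% (S100 limit of 50), 0.461% (mitochondrial limit of 50%), 0.313% (no filter) and 0.411% (other markers left out). Granule-rich shares became 1.49% with suffix 1 and 0% with suffix 2 when members with other markers were left out, and 0% with suffix 2 at C1q 0. The 101 genes higher with suffix 1 became 172 with B cell levels subtracted and 29 at 4 times the B cell level or more in either library. That last limit lets a gene in through the library where it is high. The 315 higher with suffix 2 became 541 (C1q 0), 559 (S100 limit of 50), 589 (mitochondrial limit of 10%), 595 (no CPM minimum), 84 (4 times the B cell level) and 621 (other markers left out). Genes above macrophages became 1137 without a CPM minimum, and those below 148 with other markers left out.

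Log2 ratios of suffix 1 to suffix 2 were counted as turned only for genes past 2-fold with all members. At C1q 0 they were Camp 3.81, Cebpe 0.022, Chil3 0.76, Lcn2 1.54, Ltf 3.34 and Ngp 4.54. With 3 or more receptor UMIs they were Camp 0.81, Chil3 1.58, Lcn2 0.50, Ltf 1.13 and Ngp 0.91. Without members of 10000 UMIs or more they were Camp 1.04, Chil3 1.81, Lcn2 0.73, Ltf 1.36 and Ngp 1.14. With other markers left out they were Camp 2.22, Lcn2 0.50, Ltf 1.72 and Ngp 2.62, and at an S100 limit of 50 Ccl3 was -0.029. Apart from the S100 limit of 50, these settings all leave out the 1 suffix 2 member with most granule UMIs. At C1q 0 and with other markers left out, no granule-rich member with suffix 2 remained, and other members were removed as well. Why the ratios turned, that of Ccl3 included, was not tested. Of 325 ratios recomputed, 21 turned by this count. Of the rest, 288 moved by at most 1 on the log2 scale and 16 by more, and these can include turns of ratios under 2-fold. No paired analysis was possible because each suffix is 1 library and neither is tied to a sample.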
